A study of Mus musculus with 6 samples.

Results

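Trp53, the mouse gene for the tumour suppressor p53, and 9 of its target genes were followed across the 6 arrays: Mdm2, Ccng1, Cdkn1a, Zmat3, Sesn2, Bax, Bbc3, Aen and Ei24. The members are every gene probe whose transcript accession belongs to one of these 10 genes. They make up 12 of the 39429 gene probes on the array, and the 10 genes stand among 20659 with a RefSeq symbol. Cdkn1a and Aen each have 2 probes, and the other 8 genes have 1. All 12 probes entered the test, which took every probe whose 2 spots in some group were both well above background. Trp53 and Ei24 met that condition only through the arrays labelled shTug1.

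The cells were podocytes, the cells whose foot processes cover the capillaries of the glomerulus, from a mouse line immortalised with a temperature-sensitive SV40 T antigen. All cells were expanded at 33 °C and then differentiated for 10 days at 37 °C. The 3 groups of 2 arrays differed in the lentiviral (pGIPZ) short hairpin RNA. shControl carried a scrambled hairpin, and shTug1 clone 2 and shTug1 clone 3 carried shRNA against the long noncoding RNA Tug1. All 3 groups share the T antigen, the virus and the temperature shift, and the labels do not say how a clone was derived, or whether its 2 arrays came from separate cultures. The p-values below therefore measure the spread between these arrays, which may be technical. The comparison asks how the p53 genes differ between podocytes with a Tug1 hairpin and with a control hairpin, in either clone.

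p53 is a transcription factor that is held at a low level in resting cells, because Mdm2, a ubiquitin ligase, marks it for destruction. DNA damage and other stresses stabilise the protein, which then switches on genes for cell cycle arrest, DNA repair and cell death, and also Mdm2, its own inhibitor. Much of this control acts on the protein and is not visible in mRNA. Large T antigen binds p53 and blocks it, and its temperature-sensitive form is inactivated at the higher culture temperature. In kidney podocytes, which hardly divide, p53 is mostly discussed in relation to injury and cell loss.

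The 75th percentile of the deposited intensity lay between 324.3 and 363.3 on the control arrays and between 569.2 and 1055 on the arrays labelled shTug1. The brightest 1% of spots began at similar intensities in both (65860 to 93050 and 82940 to 96440). Between 58.2% and 68% of gene probes were well above background, no spot was saturated, and the number of arrays limits the precision. The median SD between a group's arrays was 0.51 on the log2 scale in control, 0.16 in clone 2 and 0.17 in clone 3. Both control arrays share 1 scan time in the file headers and the 4 arrays labelled shTug1 share another, so against control the effects of scan and hairpin cannot be told apart. Tug1 itself, on the probe measured on all 6 arrays, had a log2 fold change of 0.81 in clone 2 and −0.48 in clone 3, and neither passed (limma adjusted p = 0.0823 and 0.329). That of clone 2 goes against its label, and a dimmer Tug1 probe was at least 2.79-fold higher in clone 2 than in control. The groups are therefore named by label, and no direction here is read from a lower Tug1. Of 12 podocyte markers, 10 or 11 were well above background on every array. Their summed signal, in units of each array's 75th percentile, was 118 to 128 in control and 61.7 to 67.0 on the arrays labelled shTug1. The summed signal of the 6 immune markers on the array was 14.3 to 29.8 in control and 3.56 to 5.72 on the arrays labelled shTug1. Of 7 markers each, 4 to 5 stromal, 3 to 4 endothelial and 4 to 5 tubular ones were well above background, and Pdgfra, Des, Tek, Emcn, Tie1 and Slc12a1 were not on any array. The summed stromal signal was 16.5 to 20.5 in control and 9.19 to 11.7 on the arrays labelled shTug1, the endothelial 1.495 to 2.58 and 0.992 to 1.32, and the tubular 6.68 to 10.5 and 4.59 to 6.67. The part of these differences in the p53 genes was not tested.

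p53 binds DNA as a tetramer, through pairs of a 10-base element that reads the same on both strands. Promoter windows of RefSeq (build GRCm38.p6, from 250 bases before to 50 bases after each annotated start) were available for 9 of the 10 genes. At least 1 match to the p53 decamer consensus lay in the windows of 7 of them: Trp53, Mdm2, Cdkn1a, Bax, Aen, Ei24 and Ccng1. The windows of Bbc3 and Sesn2 had no match. Only full matches to the consensus inside the windows were sought. By gene, a match was held by 77.8% of the members with a window, 9.55% of all 27025 genes and 17% of the 53 genes with a window in the p53 pathway lists used below. By window, it was 61.5% of the 13 member windows and 8.36% of all 32851. Trp53 and Bax carry a match 75 and 201 bases before the start, and Aen carries 1 before a start, and these are not shown. The stretches of 4 other genes with the motif before a start are shown, with the decamers in capitals. They are shown for their differing results: with the 75th percentile scaling Ei24 and Ccng1 rose, Mdm2 fell and Cdkn1a did not pass the test.
Cdkn1a, chr17:29090876-29090967, plus strand: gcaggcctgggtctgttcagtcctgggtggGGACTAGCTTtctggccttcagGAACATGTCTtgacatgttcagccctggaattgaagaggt
Mdm2, chr10:117710905-117710974, minus strand: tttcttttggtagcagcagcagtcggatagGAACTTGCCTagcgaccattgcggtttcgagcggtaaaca
Ccng1, chr11:40755432-40755501, minus strand: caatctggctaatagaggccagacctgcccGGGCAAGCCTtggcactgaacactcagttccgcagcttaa
Ei24, chr9:36797335-36797374, minus strand: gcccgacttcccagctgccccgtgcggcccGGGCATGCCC
The decamers of Cdkn1a begin 73 and 51 bases before the upstream of its 2 annotated starts, and the window of the other start holds no match. They lie close enough to form a full p53 site, which 24 of the 32851 windows (0.0731%) hold. Those of Mdm2, Ccng1 and Ei24 are single and begin 186, 185 and 10 bases before the start. These matches describe sequence, and binding was not measured.

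Values below are log2 intensities minus the 75th percentile of their array, so a negative value is a signal dimmer than that percentile. Over both clones together (the mean of the 2 clones minus control), Trp53, Ccng1 and Ei24 rose, Mdm2, Bbc3 and Aen fell, and Cdkn1a, Bax, Zmat3 and Sesn2 did not pass the test (limma, Benjamini-Hochberg adjusted over all 25545 probes, threshold 0.05). These 3 rises and 3 falls among 10 genes stand beside 10.0% of all 21474 genes called higher and 29.6% called lower. Of the rises, Trp53 and Ei24 entered the test only through the arrays labelled shTug1. Among probes well above background on all 6 arrays, 1 of 8 members was called higher and 4 lower, beside 8.59% and 39.1% of all genes. The members were chosen with earlier results of these data known, so these shares only describe them. The median log2 fold change of the members was 0.32, and that of all genes −0.64. Of the 10 members, 6 lay above the median gene. On single arrays the groups did not overlap for 8 genes. Trp53, Ei24, Ccng1 and Zmat3 were higher on all 4 arrays labelled shTug1 than on both control arrays, as were 12.3% of all genes. Mdm2, Bbc3, Aen and Sesn2 were lower on all 4, as were 43.1% of all genes. In a bulk culture, fewer cells with a transcript and less of it per cell cannot be told apart.

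**Figure D1:**
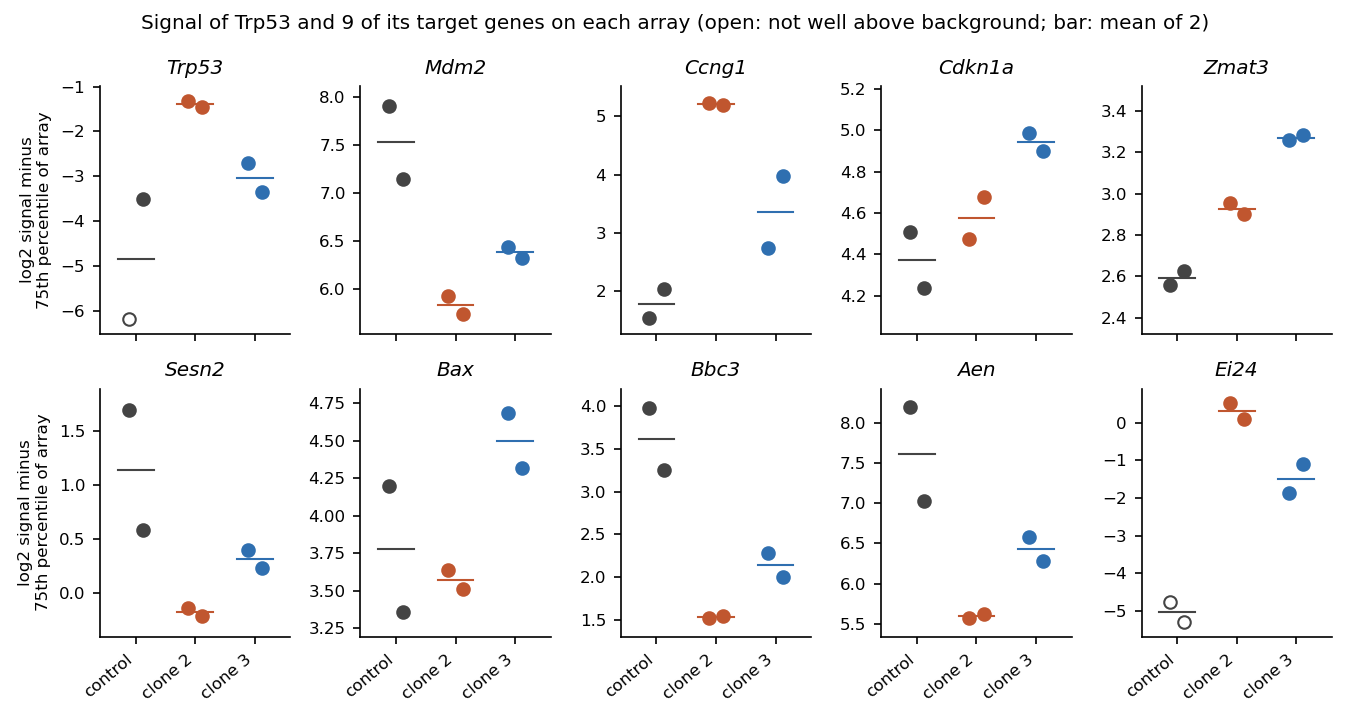
Log2 signal relative to the array's 75th percentile (vertical axis, its own range in each panel) for each of the 10 genes on the 2 arrays of each group (points), with the group mean as a bar and open points where the spot was not well above background. Ei24 and Ccng1 sit higher on all arrays labelled shTug1 than in control, Mdm2, Bbc3 and Aen lower, and the control points of Trp53 lie 2.67 apart.

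Trp53 itself was dim. Its only probe (A_55_P1968068) read −6.18 and −3.51 on the control arrays, −1.33 and −1.47 with clone 2 and −2.71 and −3.35 with clone 3. The first control spot was not well above background, with an intensity of 4.47, against 31.9 on the second control array and 81.4 to 419 on the arrays labelled shTug1. Clone 2 was highest, and the lower clone 3 array lay only just above the second control. The log2 fold change was 2.63 (SE 0.67, limma adjusted p = 0.0235) over both clones and 3.45 (SE 0.77, adjusted p = 0.0169) in clone 2. In clone 3 it was 1.81 (SE 0.77, adjusted p = 0.140), which did not pass. The control arrays spread most, with an SD of 1.89, against 0.10 for clone 2 and 0.46 for clone 3, and the SE averages over these. The size rests on the first control array: the value over both clones was 1.30 without shControl replicate 1 (adjusted p = 0.0490) and 3.97 without shControl replicate 2. In clone 2 it was 2.11 without shControl replicate 1. The call over both clones ended without shTug1 clone 3 replicate 1 (2.47) or replicate 2 (2.79). Each of these fits leaves clone 3 with 1 array, and most calls over all genes were lost in them, so this loss is not particular to Trp53. Under quantile normalization the value was 3.03 but did not pass (adjusted p = 0.0577), and with normexp background correction it was 0.39 (adjusted p = 0.172).

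Mdm2, the ubiquitin ligase that degrades p53 and is itself a p53 target, fell. It read 7.90 and 7.15 on the control arrays, 5.93 and 5.74 with clone 2 and 6.44 and 6.33 with clone 3, so both clones lay below both controls and clone 3 above clone 2. Its log2 fold change was −1.42 (SE 0.33, limma adjusted p = 0.0194) over both clones, −1.69 (adjusted p = 0.0168) in clone 2 and −1.14 (adjusted p = 0.0855) in clone 3. Relative to the median gene, the value over both clones was −0.78. As deposited, before any scaling, the intensities were 77600 and 51580 for the controls, 64230 and 50710 for clone 2, and 49470 and 66750 for clone 3. These overlap, and without scaling the log2 fold change was −0.14 (adjusted p = 0.806). It was −0.38 (adjusted p = 0.189) under quantile normalization and −1.09 (adjusted p = 0.0281) with arrays centred on their medians. The call over both clones ended without shTug1 clone 3 replicate 1 (−1.45) or replicate 2 (−1.39), where most calls over all genes were also lost. The call of Mdm2 in clone 2 ended without shTug1 clone 2 replicate 1 (−1.79) or replicate 2 (−1.60), where calls over all genes also fell in number.

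Ccng1 encodes cyclin G1, a p53 target that helps a phosphatase activate Mdm2 and so also acts in the feedback on p53. It read 1.54 and 2.03 on the control arrays, 5.24 and 5.20 with clone 2 and 2.73 and 3.97 with clone 3. The clone 2 arrays nearly coincided far above control, while the clone 3 arrays lay in between and 1.24 apart. The deposited intensities ran from 944 and 1480 in control to 39710 and 34870 in clone 2. Ccng1 rose by 2.50 (SE 0.41, limma adjusted p = 0.0107, 5.66-fold) over both clones and by 3.43 (adjusted p = 0.00625, 10.8-fold) in clone 2. In clone 3 the value was 1.57 (adjusted p = 0.0709). The rise over both clones kept passing without each array in turn, and under quantile normalization (3.02, adjusted p = 0.0167), median scaling (2.83) and no scaling (3.77). Of the feedback genes, the transcript of p53's inhibitor and that of cyclin G1 thus moved in opposite directions with the 75th percentile.

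Among the members that arrest or slow growth, none passed over both clones. Cdkn1a encodes p21, the inhibitor of cyclin-dependent kinases and the best known p53 target. Its main probe (A_51_P363947, averaged over 10 spots) read 4.51 and 4.24 on the control arrays, 4.47 and 4.68 with clone 2 and 4.99 and 4.90 with clone 3. Both clone 3 arrays lay above both controls, and clone 2 overlapped them. The log2 fold change was 0.39 (SE 0.29, limma adjusted p = 0.294) over both clones, 0.20 (adjusted p = 0.619) in clone 2 and 0.57 (adjusted p = 0.249) in clone 3. A second, dim probe (A_55_P1986282) gave −0.60 (adjusted p = 0.302), with all groups overlapping. The main probe depended on the scaling. Its deposited intensities were 7374 and 6862 in control and 18080 to 24850 on the arrays labelled shTug1. Quantile normalization gave 1.18 (adjusted p = 0.0220), no scaling 1.66 (adjusted p = 0.00530) and median scaling 0.72 (adjusted p = 0.0509).

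Zmat3, an RNA-binding zinc finger protein that stabilises p53's own mRNA, was the member with the closest replicates. It read 2.56 and 2.63 on the control arrays, 2.95 and 2.90 with clone 2 and 3.26 and 3.28 with clone 3, with an SD from 0.017 to 0.048 in the 3 groups. The groups did not overlap and were ordered control, clone 2, clone 3. The log2 fold change of 0.51 (SE 0.28, limma adjusted p = 0.169) did not pass, and its SE was larger than this SD because limma moderates the spread of each probe towards that of all probes. It was 0.84 (adjusted p = 0.0426) with median scaling and 1.06 (adjusted p = 0.0262) with quantile normalization. Sesn2, the stress-induced sestrin that restrains mTORC1, read 1.69 and 0.59 on the control arrays, −0.13 and −0.21 with clone 2 and 0.40 and 0.23 with clone 3. All 4 arrays labelled shTug1 lay below both controls, which were 1.11 apart. Its log2 fold change over both clones, −1.07 (SE 0.37, adjusted p = 0.0542), did not pass, while in clone 2 it fell by 1.31 (SE 0.43, adjusted p = 0.0430). That fall was no longer called without either clone 2 array (−1.35 and −1.27), without either clone 3 array or without shControl replicate 1 (−0.76). In these fits, calls in clone 2 over all genes also fell in number. Without scaling, the value of Sesn2 over both clones was 0.21 (adjusted p = 0.733).

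The 4 members tied to cell death split. Bax, which permeabilises the outer mitochondrial membrane, read 4.20 and 3.36 on the control arrays, 3.64 and 3.51 with clone 2 and 4.68 and 4.32 with clone 3. Clone 2 lay within the range of the controls and clone 3 above both. The log2 fold change was 0.26 (SE 0.35, limma adjusted p = 0.552) over both clones, −0.21 (adjusted p = 0.674) in clone 2 and 0.72 (adjusted p = 0.228) in clone 3. As with Cdkn1a, it was larger with quantile normalization (0.97, adjusted p = 0.0292) and without scaling (1.53, adjusted p = 0.0101).

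Bbc3 encodes PUMA, a BH3-only protein upstream of Bax, and fell. It read 3.99 and 3.25 on the control arrays, 1.53 and 1.55 with clone 2 and 2.28 and 2.01 with clone 3. Both clones lay well below both controls, with clone 2 the lowest. The log2 fold change was −1.78 (SE 0.33, limma adjusted p = 0.0132, 3.43-fold lower) over both clones, −2.08 (adjusted p = 0.0120) in clone 2 and −1.47 (adjusted p = 0.0525) in clone 3. Bbc3 was the only member that also lay lower on all 4 arrays labelled shTug1 in the deposited intensities, which were 5133 and 3458 in control and 2770 to 3337 on those arrays. Its fall held under quantile normalization (−1.20, adjusted p = 0.0195) and median scaling (−1.45, adjusted p = 0.0171), but not without scaling (−0.50, adjusted p = 0.315). It was no longer called without shTug1 clone 3 replicate 2 (−1.71), where most calls over all genes were also lost.

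Aen, an apoptosis-enhancing nuclease induced by p53, fell on both its probes. The brighter (A_55_P2145804) read 8.19 and 7.03 on the control arrays, 5.57 and 5.63 with clone 2 and 6.58 and 6.28 with clone 3, with no overlap between control and either clone. Its log2 fold change was −1.60 (SE 0.39, limma adjusted p = 0.0212) over both clones, −2.01 (adjusted p = 0.0164) in clone 2 and −1.18 (adjusted p = 0.111) in clone 3. The other probe (A_55_P2141860) gave −1.63 (adjusted p = 0.0204) over both clones. Before scaling, the intensities of the brighter probe overlapped, at 94840 and 47350 in control and 46870 to 64780 on the arrays labelled shTug1. The log2 fold change of that probe was then −0.32 (adjusted p = 0.576), and under quantile normalization −0.58 (adjusted p = 0.0950). It was −1.01 without shControl replicate 1 (adjusted p = 0.0437). It was no longer called without shTug1 clone 3 replicate 1 (−1.67) or replicate 2 (−1.52), where most calls over all genes were also lost. The other probe gave −1.04 without shControl replicate 1, and −1.67 and −1.59 without the clone 3 arrays (adjusted p = 0.0617 and 0.0795).

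Ei24, an endoplasmic reticulum membrane protein induced by p53 and involved in autophagy, showed the largest difference among the members. It read −4.77 and −5.30 on the control arrays, where neither spot was well above background, 0.52 and 0.10 with clone 2 and −1.87 and −1.10 with clone 3. The deposited intensities were 11.9 and 9.24 for the controls, 1507 and 1019 for clone 2, and 155 and 389 for clone 3. Ei24 was thus at least 13.21-fold higher over both clones, at least 24.6-fold in clone 2 and at least 7.10-fold in clone 3. The fitted log2 fold change over both clones was 4.445 (limma adjusted p = 0.00575). It was 5.34 (adjusted p = 0.00463) in clone 2 and 3.55 (adjusted p = 0.0259) in clone 3. These fits use control signals not well above background, and the bounds themselves were not tested. Each bound sets a control array to the lowest signal that was well above background on it, where its own was lower. Ei24 was the only member called in clone 3. That call ended without shTug1 clone 3 replicate 1 (log2 fold change 3.94) or replicate 2 (3.16), where the lone array is assumed to vary like the other groups. In both fits the calls in clone 3 were lost over all genes, so this loss is not particular to Ei24. The call over both clones held without each array in turn and under quantile normalization (4.90, adjusted p = 0.00971).

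By clone, more members were called in clone 2 than in clone 3. In clone 2, 3 of 10 rose (Trp53, Ei24 and Ccng1) and 4 fell (Mdm2, Bbc3, Aen and Sesn2), beside 10.1% of all genes called higher and 33.1% called lower. In clone 3, 1 rose (Ei24) and 0 fell, beside 4.24% called higher and 4.53% called lower in limma. At an unadjusted p under 0.05, 3 members were higher in clone 3 (Trp53, Ei24 and Ccng1) and 3 lower (Mdm2, Bbc3 and Aen), as were 10.6% and 24.8% of all genes. The median member lay at −0.0017 in clone 2 and 0.63 in clone 3, and the median gene at −0.80 and −0.46. The log2 fold changes of both clones had the same sign for 9 of the 10 genes, Bax being the exception. Both comparisons use the same control arrays.

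**Figure D2:**
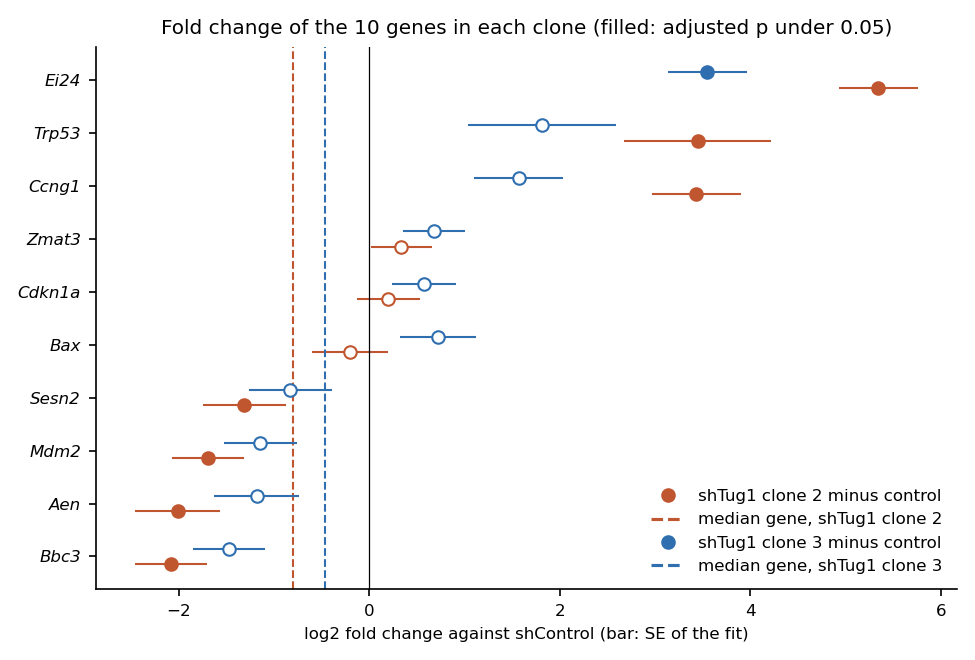
Log2 fold change against shControl with its SE (horizontal axis) for the 10 genes in clone 2 and clone 3, filled where the adjusted p was under 0.05, with the median gene of each clone as a dashed line. Ei24, Trp53 and Ccng1 lie further from 0 in clone 2 (5.34, 3.45 and 3.43) than in clone 3 (3.55, 1.81 and 1.57), with Ei24's values fitted against a control below background.

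The difference between the clones was tested directly, between arrays of 1 scan. Its SE was fitted over all 6 arrays and so includes the spread of the control arrays from the other scan. None of the 10 members passed in clone 3 against clone 2 in limma, in either direction, beside 0.410% of all genes called higher and 1.09% called lower. At an unadjusted p under 0.05, 2 were lower in clone 3 and 0 higher, beside 6.3% and 5.3% of all genes. These were Ei24, at −1.79 (SE 0.41, adjusted p = 0.0924), and Ccng1, at −1.86 (SE 0.47, adjusted p = 0.123). Trp53 was at −1.63 (SE 0.77, adjusted p = 0.379). The other 7 lay between 0.34 and 0.93, around the median gene at 0.38. Fitted on the 4 arrays of that scan alone, adjusted p was 0.0585 for Trp53, 0.0652 for Ei24 and 0.0709 for Ccng1. In that fit 0 members passed in either direction, beside 0.671% of all genes called higher and 2.1% lower. At an unadjusted p under 0.05, 4 members were higher and 3 lower there. The share of all genes at that cut was not computed for this fit, so these counts are not read as a difference of the members. The 3 members that rose were thus numerically higher in clone 2, and the other 7 numerically higher in clone 3, without passing the test of the difference. Of all genes, 58.9% were higher on both clone 3 arrays than on both clone 2 arrays, and 16.4% were lower. Only 5 of the 10 members lay above the median gene of this comparison. Mdm2, Cdkn1a and Zmat3 changed to a negative sign under quantile normalization (−0.0598, −0.14 and −0.0247), and Cdkn1a, Zmat3 and Sesn2 with no scaling (−0.17, −0.20 and −0.0583).

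How the arrays were put on one scale decided part of these results. The median gene over both clones lay at −0.64 with the 75th percentile, −0.31 with median scaling, −0.24 with quantile normalization and 0.64 with no scaling. Higher calls made up 25.2%, 39.6%, 44.4% and 98.1% of all calls in the same order. In clone 2 these shares were 23.4%, 35%, 40.4% and 97.9%, in clone 3 48.4%, 61.9%, 59.2% and 97.6%, and for clone 3 against clone 2 27.4%, 30.4%, 28.6% and 9.44%. Among the members, 3 rose and 3 fell with the 75th percentile, 4 and 3 with median scaling, 5 and 1 with quantile normalization, and 6 and 0 with no scaling (0 also at an unadjusted p under 0.05). In the same order, 10.0%, 11.9%, 11.5% and 29.5% of all genes were called higher, and 29.6%, 18.1%, 14.4% and 0.563% lower. Ei24 and Ccng1 rose under all 4, and under all 4, Trp53, Ccng1, Ei24, Cdkn1a, Zmat3 and Bax lay above zero, joined by Sesn2 (0.21) with no scaling. Of the falls, that of Bbc3 passed under the 3 scalings and those of Mdm2 and Aen under the 75th percentile and the median only. With each of the 3 scalings, the 4 members below zero were Mdm2, Bbc3, Aen and Sesn2.

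**Figure D3:**
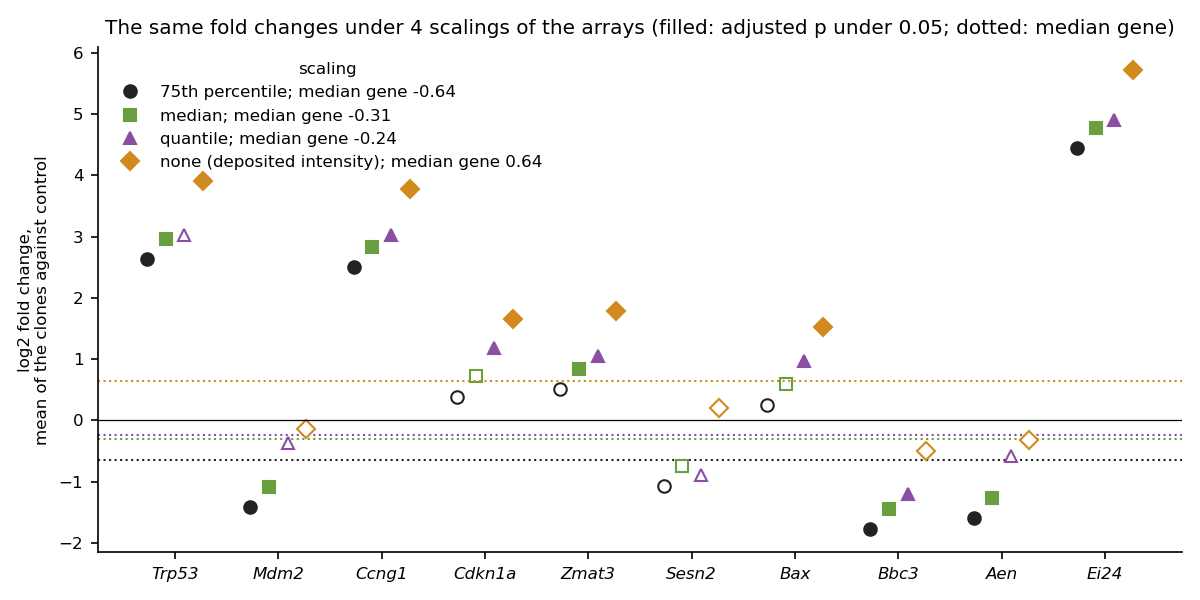
Log2 fold change of the mean of the clones against control (vertical axis) for each of the 10 genes under 4 ways of scaling the arrays (symbols), filled where the adjusted p was under 0.05, with the median gene of each scaling as a dotted line. Ei24 and Ccng1 are filled under all 4, while Mdm2 moves from −1.42 with the 75th percentile to −0.14 with no scaling.

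Over the 6 arrays, the gene whose log2 values were most like those of Trp53 was Mr1 (Pearson r = 0.998), followed by Pum3 (0.994), Plat (0.992), Sec11a (0.990) and Tgds (0.989), among 12375 genes well above background on every array. In all, 522 of these genes had an r above 0.9, and the arrays share their group and scan. Among the members, r with Trp53 was 0.86 for Ccng1 and 0.81 for Ei24, and it was −0.97 for Sesn2 and for the brighter Aen probe, −0.95 for Mdm2 and −0.93 for Bbc3. This r was between −0.35 and 0.48 for Bax, Cdkn1a (main probe) and Zmat3. How many of all genes ran as closely opposite to Trp53 was not counted. Of all tested genes, 43.1% were lower on every array labelled shTug1 than on both control arrays. The first control spot of Trp53 and both control spots of Ei24 were not well above background, so their r includes such signals.

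Of the other p53 pathway genes, 65 were listed and 61 were tested, of which 11 were called higher and 16 lower over both clones, beside 10.0% and 29.6% of all genes. Of the 11, Atm, Ercc5, Apaf1 and Lif entered the test only through the arrays labelled shTug1. Their median log2 fold change was −0.34, beside −0.64 for all genes. Among 16 tested regulators and partners of p53, 2 were called higher and 7 lower, with a median of −0.77. One of the 2 is not a rise in both clones: Atm, the kinase that signals DNA double-strand breaks to p53, had a value of 1.51 (limma adjusted p = 0.0278). It was well above background only on the clone 2 arrays, where it was at least 2.01-fold higher than in control, and its clone 3 arrays overlapped the controls. Trp53bp1, a damage-response protein that binds p53, rose by 1.44. Cdkn2a, whose Arf product blocks Mdm2, read 7.79 and 6.81 on the control arrays, 4.33 and 5.05 with clone 2 and 5.62 and 5.33 with clone 3. It fell by 2.22 (SE 0.39, adjusted p = 0.0125) over both clones and in each clone, while a second, dim probe gave −1.17 (adjusted p = 0.112). Ppp1r13b, which encodes ASPP1, a p53 partner in apoptosis, fell by 1.76. Ppm1d, the phosphatase WIP1 that dampens p53 signalling, fell by 1.41, and was also called lower in clone 3 (adjusted p = 0.0386). Kat5, the acetyltransferase TIP60, fell by 1.40 on its brighter probe and rose by 1.59 on another, so its direction is unsettled.

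Of 45 tested target genes outside the 10 members, 9 rose and 9 fell, with a median of −0.29. Over all genes 10.0% were called higher and 29.6% lower, with a median of −0.64, and the counts by list below stand beside these shares. Among the rises, Ercc5, Apaf1 and Lif entered the test only through the arrays labelled shTug1. In arrest and DNA repair, 2 of 13 rose and 2 fell. Ercc5, the endonuclease XPG of nucleotide excision repair, read −5.33 and −3.77 on the control arrays, 0.12 and 0.001 with clone 2 and −1.41 and −0.33 with clone 3. It rose by 4.14 (SE 0.50, limma adjusted p = 0.00631), with the first control spot not well above background. Polk, a polymerase that copies past DNA lesions, rose by 1.82 on its brighter probe, while another, at background in control, gave 0.53 (adjusted p = 0.208). Sfn, the checkpoint protein 14-3-3 sigma, fell by 1.31, and Gtse1, which restrains p53, fell by 1.02.

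In the list on apoptosis, 4 of 14 rose and 3 fell. Apaf1, the core of the apoptosome, rose by 3.50 (SE 1.01, limma adjusted p = 0.0318), from −6.38 and −2.02 in control to 0.005 and 0.19 in clone 2 and −1.36 and −1.63 in clone 3. Its lower control spot was not well above background, and without shControl replicate 1 the value was 1.32. Pidd1, which assembles a caspase-2 platform, rose by 1.67, and Bid, a BH3-only protein, by 1.62. Triap1, which rose by 1.49, is known as an inhibitor of apoptosis. The falls were those of Tnfrsf10b (−1.39), a death receptor, Siva1 (−1.25), a death-promoting adaptor, and Rps27l (−1.09), a ribosomal protein homologue. A second probe of Siva1 gave −0.12 (adjusted p = 0.797).

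In metabolism and stress, 2 of 11 rose and 2 fell. Cpt1c, a carnitine palmitoyltransferase, read −1.62 and −1.30 on the control arrays, 0.76 and 0.69 with clone 2 and 0.95 and 1.39 with clone 3. It rose by 2.41 (SE 0.30, limma adjusted p = 0.00686) on its brighter probe, and its other probe by 2.09. Gpx1, a glutathione peroxidase, rose by 1.01. Ddit4, an inhibitor of mTORC1 like Sesn2, fell by 1.41, and Steap3, a ferrireductase, by 1.24. Of 7 tested genes in signalling and matrix, the cytokine gene Lif rose by 2.56, while Pml, which organises nuclear bodies, fell by 1.44. One Lif control spot was not well above background, and a second Pml probe gave −0.66 (adjusted p = 0.107).

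**Figure D4:**
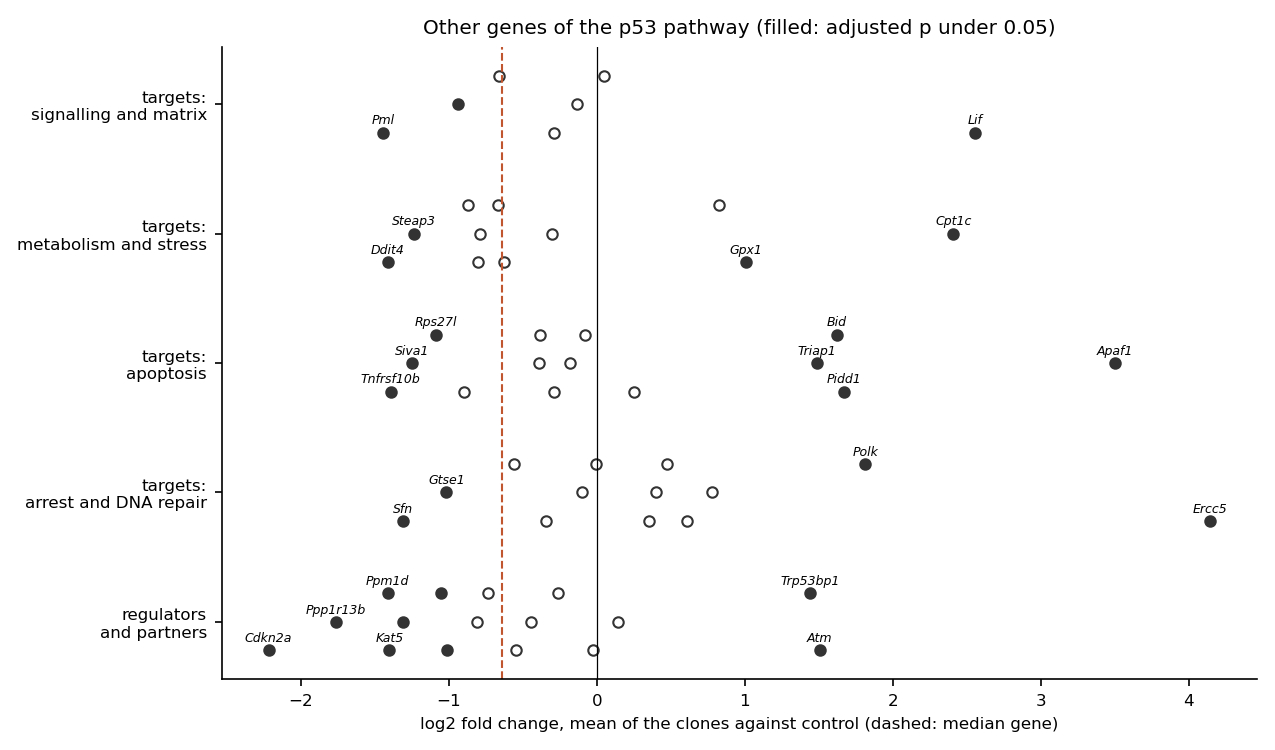
Log2 fold change of the mean of the clones against control (horizontal axis) for the 61 tested pathway genes by list (rows), filled where the adjusted p was under 0.05, with the median gene as a dashed line at −0.64. Ercc5 (4.14), Apaf1 (3.50) and Lif (2.56), each with a control spot not well above background, are plotted furthest to the right, and Cdkn2a (−2.22) furthest to the left.

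By clone, 10 of the 45 target genes rose and 10 fell in clone 2, beside 10.1% and 33.1% of all genes. In clone 3, 4 rose (Ercc5, Pidd1, Gpx1 and Cpt1c) and 0 fell, beside 4.24% and 4.53%. Calls among these targets depended on scaling in both directions, and without scaling 18 were called higher and 0 lower. Of the 9 falls, 3 remained with median scaling (Tnfrsf10b, Ddit4 and Pml). Under quantile normalization 0 were called in limma, and 5 targets were lower at an unadjusted p under 0.05. The share of all genes at that cut was not computed under quantile normalization. There Rps27l (0.10) turned to a positive sign. Of the 9 rises, 8 also passed with median scaling (all but Apaf1) and 7 with quantile normalization (all but Apaf1 and Lif). Of the 23 pathway genes named here for the mean of the clones, Ercc5 and Cpt1c passed without each array in turn. Without shTug1 clone 3 replicate 1 or replicate 2, most of the 23 were no longer called, and without shControl replicate 1 fewer than that were lost. Calls over all genes also fell in number in these fits, which leave 1 array in a group. Without shControl replicate 1 the values of Apaf1, Bid, Pml, Ppp1r13b, Siva1, Triap1 and Trp53bp1 were smaller by over 1.5 times, and without shControl replicate 2 that of Apaf1 was larger (5.68).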

How the data were processed

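RNA of 6 samples was labelled with Cy3 and read on one-colour Agilent mouse arrays. The deposited scanner files hold an intensity per spot, which per the submitters' processing notes came from Agilent Feature Extraction (version 11.0.1.1) and per the file headers is background-subtracted and spatially detrended. A deposited series table holds log2 values normalized in a way that the sources here do not give. It lacks the probes of Trp53 and Ei24 and served as an alternative.

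Log2 of the processed signal was taken relative to its array's 75th percentile (gene spots only), leaving out control and outlier spots and averaging the spots of a probe. A probe was tested if both spots of some group were well above background (25545 probes, 21474 genes). Symbols came from RefSeq by accession (27234 of 39429 probes matched). limma 3.58.1 in R 4.3.3 fitted 3 group means to 6 arrays (3 residual and 4.61 prior degrees of freedom), two-sided, Benjamini-Hochberg adjusted over all probes, threshold 0.05; it was tested on simulated data. A gene counts by its brightest tested probe. Where a side was below background, the fold is a bound.

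The normexp alternative (offset 50) used the median spot signal, in place of the mean signal planned. Genes named were the members, Tug1, up to 4 rises and 4 falls per pathway list, up to 2 per direction that differed between clones (and any that 5 or fewer make up), and the 5 genes most like Trp53; 1 gene that the rule picked is not reported here. Members and lists were chosen with earlier results of these data known. Alternatives were quantile and median scaling, normexp, both filters on dim probes, 1 probe per gene, the deposited series values, a replicate block, each array left out and, added after seeing the data, no scaling. Replicate numbers did not pair the arrays: correlations of same-numbered deviations were −0.03, 0.12 and −0.09.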

Additional observations from a re-analysis of the deposited data

Results flagged for a closer look

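By the test of the difference itself, 3 of the 61 tested pathway genes were called lower in clone 3 than in clone 2 and 0 higher, beside 1.09% and 0.410% of all genes. Only their higher signal in clone 2 brought these 3 into the test, so the count is no independent sign of a difference. Atm, the DNA damage kinase, was at least 5.09-fold lower in clone 3 than in clone 2 (fitted log2 difference −3.435, limma adjusted p = 0.0214). It read −3.76 and −2.85 in clone 2, where both spots were well above background, and −7.23 and −6.26 in clone 3, −6.38 and −6.69 in control, where none was. Dram1, a lysosomal membrane protein that promotes autophagy downstream of p53, was at least 3.85-fold lower (fitted log2 difference −2.374, adjusted p = 0.0222). It read −3.90 and −3.52 in clone 2 and −6.17 and −6.00 in clone 3, and was well above background in clone 2 only. Lpin1, a phosphatidate phosphatase, differed by −2.955 (SE 0.52, adjusted p = 0.0382), from −3.30 and −2.35 in clone 2 to −6.27 and −5.29 in clone 3. In clone 3, 1 of its 2 spots was well above background.

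All 3 were dim on every array and entered the test only through clone 2, so the fitted differences are against signals at or near background. Given in the order Atm, Dram1, Lpin1, none of them passed with normexp correction (adjusted p = 0.119, 0.326 and 0.136). None passed without shTug1 clone 3 replicate 1 or replicate 2 either, where most calls between the clones over all genes were also lost. On the 4 arrays of 1 scan, adjusted p was 0.0432, 0.0271 and 0.0563. Lpin1 also missed the threshold with quantile normalization (adjusted p = 0.114), median scaling (0.0683) and without either control array (0.0563), and Dram1 without shTug1 clone 2 replicate 2 (0.0511).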

How the results depend on the processing

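Scaling and the number of arrays limit these results. Over both clones, members called higher numbered 3, against 5 with quantile normalization, 1 of 8 among probes well above background on all 6 arrays and 6 without scaling. Of all genes, 10.0%, 11.5%, 8.59% and 29.5% were called higher in that order. Members called lower numbered 3, against 1 with quantile normalization, 1 of 8 in the deposited series values and 0 without scaling. Of all genes, 29.6%, 14.4%, 20.3% and 0.563% were called lower in that order. In clone 2 higher calls were 3, against 5, 1 and 6 in the first order, and lower calls 4, against 1 with quantile normalization, 2 in the deposited series values and 0 without scaling. The matching shares of all genes were 10.1%, 10.4%, 7.85% and 30.8% higher, and 33.1%, 15.4%, 21.6% and 0.666% lower. In clone 3 higher calls were 1, against 2 with quantile normalization, 3 with normexp, 3 in the deposited series values and 6 without scaling, and lower calls 0, against 3 with normexp, 1 among probes bright on all arrays and 1 in the deposited series values. The matching shares of all genes were 4.24%, 4.54%, 6.61%, 6.13% and 16.3% higher, and 4.53%, 25.1%, 11.2% and 6.36% lower. In clone 3 against clone 2, lower calls were 0, against 2 with normexp and 1 without scaling, beside 1.09%, 1.68% and 2.86% of all genes. Leaving out each array in turn moved these counts over both clones and in each clone, where calls over all genes moved as well. Between the clones, the counts did not move when an array was left out. Beside each 0 in limma, the members past an unadjusted p of 0.05 numbered 0 without scaling and up to 4 otherwise. Before any of these changes in processing, 3 members were lower in clone 3 at that cut, beside 24.8% of all genes. In clone 3 against clone 2, 0 were higher and 2 lower, beside 5.3% and 6.3%. Shares of all genes at that cut were not computed for the alternatives, so their counts are not read as a difference of the members. The cause of the moves was not tested.

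Signs turned as follows, none past the threshold unless stated. With quantile normalization, clone 3 against clone 2 gave −0.0598 for Mdm2, −0.14 for Cdkn1a and −0.0247 for Zmat3 (with the deposited series values −0.0599, −0.14 and −0.0243), Bax in clone 2 gave 0.74 in both, and over both clones Rps27l gave 0.10 in both. Median scaling gave 0.18 for Bax in clone 2. With normexp, Trp53 in clone 3 gave −0.14 and Atm over both clones −0.43. Without scaling, Bax in clone 2 gave 1.34 (adjusted p = 0.0344), and Sesn2 gave 0.21 over both clones, 0.23 in clone 2, 0.18 in clone 3 and −0.0583 between the clones. The dim Cdkn1a probe gave 0.67, 0.78, 0.57 and −0.22 in that order, and between the clones the main Cdkn1a probe gave −0.17 and Zmat3 −0.20. Over both clones Gtse1 gave 0.26, Siva1 0.0269, Rps27l 0.19 and Steap3 0.0380. With 1 array left out, Bax ranged from −0.16 to 0.68 over both clones and from −0.63 to 0.22 in clone 2, and the dim Cdkn1a probe from −0.93 to 0.0540 in clone 3 and from −0.32 to 0.97 between the clones.

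Of the pathway genes over both clones, 9 other targets rose (18 without scaling, 3 to 13 with an array left out) and 9 fell (0 to 16 over all alternatives, the highest with normexp). Regulators called numbered 2 higher (0 to 4) and 7 lower (0 to 10). With the replicate block, members called numbered 3 higher and 4 lower over both clones, where Sesn2 passed (adjusted p = 0.0493), and the counts of the other comparisons were unchanged. Scan as a block could not be fitted against control and was not run. Trp53, Ei24, Atm, Dram1 and Lpin1 lie near background in at least 1 group, which limits their folds.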
